A study of Mus musculus with 8 samples.

Results

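The genes described here carry fatty acids into the oxidative metabolism of muscle or set how much of it takes place. They were taken from a list of 10 Ensembl gene IDs with their symbols. Of these, 8 had a row among the 17352 rows of the deposited table, and Cpt1b and Fabp3 were not analysed here. The 8 genes were measured in gastrocnemius, a mostly fast-twitch muscle of the calf, from 4 Anxa2 knockout mice and 4 wild-type mice, on 1 array per animal. All animals had a C57BL/6 genetic background, were 24 weeks old and gave the left muscle, which was frozen directly after euthanasia. The labels name no treatment or injury, and no feeding state, time of day, sex or batch. The sources used here do not give the knockout allele or say whether annexin A2 was lost from all cells. Annexin A2 is a calcium-dependent protein that binds membranes.

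Long-chain fatty acids enter muscle fibres partly through the membrane receptor Cd36 and are burnt in mitochondria by repeated cycles of beta-oxidation. Acadl and Acadm encode the acyl-CoA dehydrogenases that open a cycle for long and medium chains, and Hadha encodes a subunit of the trifunctional protein that continues it for long chains. Pdk4 encodes a kinase that shuts down pyruvate dehydrogenase and so spares glucose, Ucp3 a mitochondrial carrier protein of muscle, and Angptl4 a secreted inhibitor of lipoprotein lipase. These last genes are known to be induced in muscle by fasting and by fatty acids through PPAR nuclear receptors. Ppargc1a encodes a transcriptional coactivator of mitochondrial and fatty acid oxidation genes.

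None of the 8 genes differed between knockout and wild-type muscle beyond the spread between animals, but Pdk4 and Ucp3 varied widely, and together, among animals of both genotypes. At a limma adjusted p under 0.05, the knockout was higher in 0 of the 8 genes and lower in 0, against 0% and 0% of all 17352 rows. At an unadjusted p under 0.05 the count was 0 of 8, against 1.55% of all rows. The knockout and wild-type arrays overlapped in all 8 genes, whereas 1.31% of all rows had arrays that did not overlap. The median difference, knockout minus wild type, was 0.02 on the log2 scale over the 8 genes and -0.01 over all rows. Values are RMA log2 expression values, which set no level of one gene against that of another, and the number of arrays limits their precision. The labels call the animals biological replicates.

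**Figure D1:**
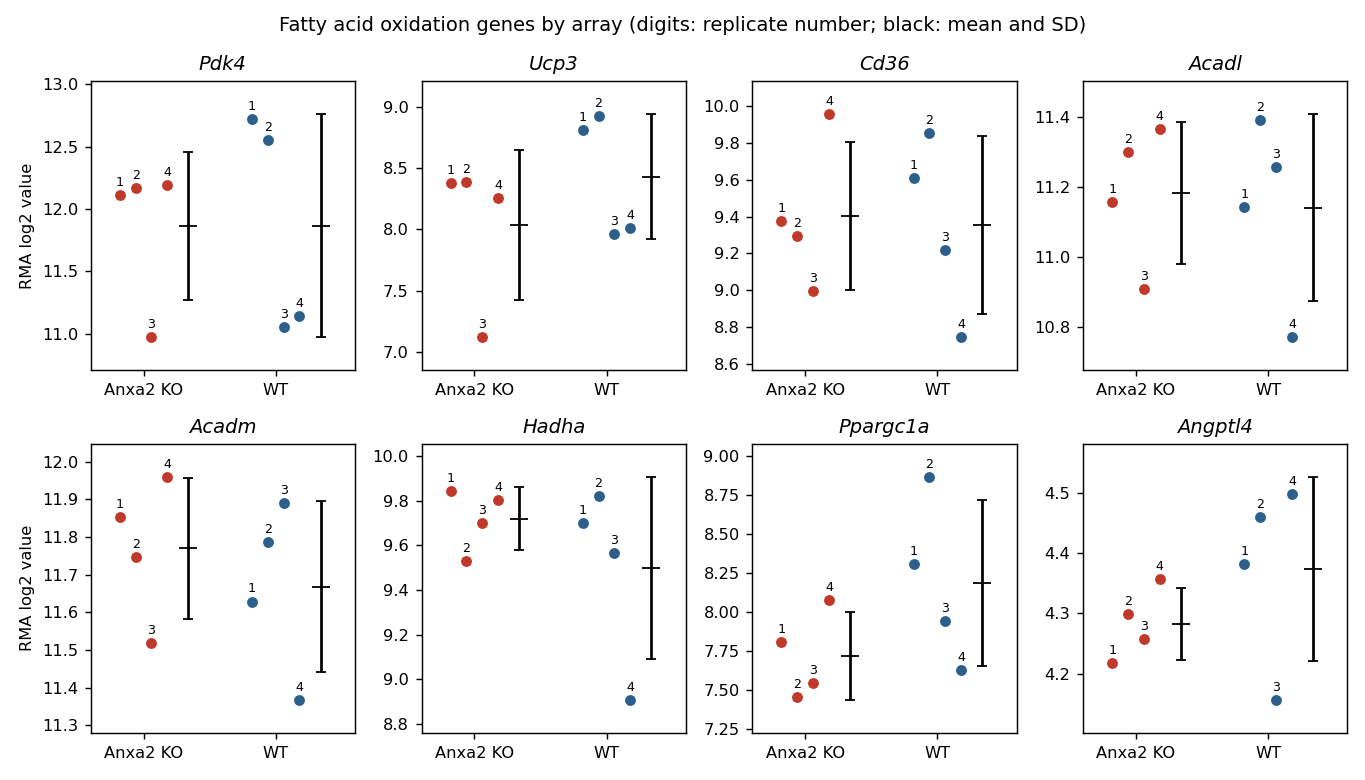
RMA log2 values (vertical axes, own scale for each gene) of the 8 genes in Anxa2 knockout (left, red) and wild-type (right, blue) arrays, with replicate numbers and, in black, the mean and SD of 4 arrays. The genotypes overlap in every panel, and Pdk4 falls into an upper set of 5 arrays and a lower set of 3.

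The arrays themselves were uneven. On the first principal component of all rows, knockout replicate 2 scored 13.8 and wild type replicate 4 scored 46.5, while the other 6 arrays lay between -15.5 and -3.47. Wild type replicate 4 had a mean correlation of 0.978 with the other arrays, against 0.988 to 0.991 for each of those. A row outside the list, ENSMUSG00000069045_at, also divided the arrays across genotype. It read 8.40 to 9.05 in knockout replicates 1 and 2 and wild type replicates 3 and 4, called the high side below, and 2.59 to 2.71 in knockout replicates 3 and 4 and wild type replicates 1 and 2, the low side. Each side thus holds 2 arrays of each genotype. Same-numbered arrays of the 2 genotypes always lie on opposite sides.

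Among the fasting-responsive genes, Pdk4 (ENSMUSG00000019577_at) had almost the same mean in both genotypes and differed strongly among animals. Its log2 values were 12.11, 12.17, 10.98 and 12.19 in knockout replicates 1 to 4, and 12.72, 12.55, 11.05 and 11.14 in wild type replicates 1 to 4. Knockout replicate 3 and wild type replicates 3 and 4 were low, the other 5 arrays were high, and a gap of 0.97 log2 units separated the sets. Within the knockout the highest array exceeded the lowest 2.32-fold, and within wild type 3.19-fold. The mean was 11.86 ± 0.59 (SD, n = 4) in the knockout and 11.87 ± 0.89 (SD, n = 4) in wild type. The difference was -0.01 (SE 0.42), with a 95% interval from 0.521-fold to 1.90-fold and a limma adjusted p of 1.00. A lower or higher mean of up to that size was therefore not excluded. Its sign had no stability, since leaving out knockout replicate 3 gave a difference of 0.29, and leaving out wild type replicate 3 gave -0.28.

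Ucp3 (ENSMUSG00000032942_at) was low in the same 3 arrays. It read 8.38, 8.38, 7.12 and 8.25 in knockout replicates 1 to 4, and 8.81, 8.92, 7.96 and 8.01 in wild type replicates 1 to 4. Knockout replicate 3 lay 0.84 log2 units below any other array, and wild type replicates 1 and 2 lay above all others. The mean was 8.04 ± 0.61 (SD, n = 4) in the knockout and 8.43 ± 0.51 (SD, n = 4) in wild type. The difference of -0.39 (SE 0.32) corresponds to 0.762-fold, with a 95% interval of 0.468-fold to 1.24-fold and a limma adjusted p of 1.00. Without knockout replicate 3 the difference was -0.09, so that most of it rested on that array.

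Angptl4 (ENSMUSG00000002289_at), the other gene of this kind, hardly varied. It read 4.22, 4.30, 4.26 and 4.36 in knockout replicates 1 to 4, and 4.38, 4.46, 4.16 and 4.50 in wild type replicates 1 to 4. Wild type replicate 3 was the lowest array and wild type replicate 4 the highest, and the knockout arrays lay between them. The difference was -0.09 (SE 0.10), with a 95% interval of 0.803-fold to 1.10-fold and a limma adjusted p of 1.00. No detection call came with the table, so whether this row lies above background is not known, and RMA values near background compress differences.

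The coactivator Ppargc1a (ENSMUSG00000029167_at) had the largest difference of the 8 genes, which did not pass the test either. It read 7.81, 7.45, 7.54 and 8.08 in knockout replicates 1 to 4, and 8.31, 8.87, 7.94 and 7.63 in wild type replicates 1 to 4. Wild type replicates 1 and 2 were above all knockout arrays, and wild type replicate 4 was below knockout replicates 1 and 4. The mean was 7.72 ± 0.28 (SD, n = 4) in the knockout and 8.19 ± 0.53 (SD, n = 4) in wild type. The difference of -0.47 (SE 0.25) corresponds to 0.724-fold, with a 95% interval of 0.496-fold to 1.06-fold. The unadjusted limma p was 0.086 and the adjusted p 1.00. Leaving out wild type replicate 2 gave -0.24. Leaving out wild type replicate 4 gave -0.65, with a limma p of 0.0151 unadjusted and 1.00 adjusted.

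Cd36 (ENSMUSG00000002944_at), the fatty acid receptor, varied over 2.32-fold among the 8 arrays without a genotype difference. It read 9.37, 9.30, 8.99 and 9.96 in knockout replicates 1 to 4, and 9.61, 9.85, 9.22 and 8.75 in wild type replicates 1 to 4. Its 3 lowest arrays were the same 3 as for Pdk4 and Ucp3, now with wild type replicate 4 at the bottom. The difference was 0.05 (SE 0.26), with a 95% interval of 0.697-fold to 1.53-fold and a limma adjusted p of 1.00, and it was -0.16 without wild type replicate 4. Cd36 is also made by endothelial cells, adipocytes and macrophages, and in whole muscle more cells of a type and more RNA per cell cannot be told apart.

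The beta-oxidation enzymes were steadier. Acadl (ENSMUSG00000026003_at) read 11.16, 11.30, 10.91 and 11.37 in knockout replicates 1 to 4, and 11.14, 11.39, 11.26 and 10.77 in wild type replicates 1 to 4. Acadm (ENSMUSG00000062908_at) read 11.85, 11.75, 11.52 and 11.96 in knockout replicates 1 to 4, and 11.63, 11.79, 11.89 and 11.37 in wild type replicates 1 to 4. Knockout replicate 3 and wild type replicate 4 were the lowest arrays of their genotype for both enzymes. Hadha (ENSMUSG00000025745_at) read 9.84, 9.53, 9.70 and 9.81 in knockout replicates 1 to 4, and 9.70, 9.82, 9.56 and 8.91 in wild type replicates 1 to 4. Here wild type replicate 4 alone stood low, 0.62 log2 units under the next array. The difference was 0.04 (SE 0.15) for Acadl. For Acadm it was 0.10 (SE 0.14), and for Hadha 0.22 (SE 0.18), each with a limma adjusted p of 1.00. The Hadha difference was 0.02 without wild type replicate 4. The 95% intervals ran from 0.815-fold to 1.30-fold for Acadl, from 0.866-fold to 1.33-fold for Acadm and from 0.878-fold to 1.55-fold for Hadha.

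**Figure D2:**
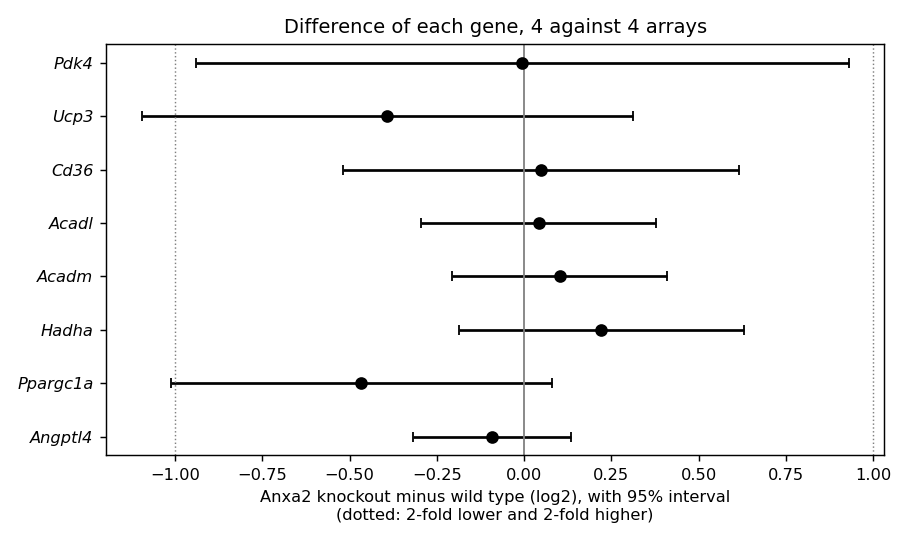
Difference of each gene, Anxa2 knockout minus wild type, on the log2 scale (horizontal axis), with the 95% interval of the limma fit over 8 arrays. Every interval includes 0, and 6 of the 8 lie within a 2-fold change either way, all but Ucp3 and Ppargc1a.

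The genes differed among themselves in their spread between animals. The pooled SD within genotypes was 0.76 for Pdk4, the rank 93 from the top among all 17352 rows, so that 0.530% of rows varied more. It was 0.56 for Ucp3 at rank 256, 0.45 for Cd36 at rank 653 and 0.43 for Ppargc1a at rank 777. Hadha followed with 0.30 at rank 2540. Acadl, at 0.24 and rank 5235, and Acadm, at 0.21 and rank 6946, lay nearer to the middle. Angptl4 had an SD of 0.12, and 82.6% of rows varied more. The median SD was 0.36 over the 8 genes and 0.18 over all rows. No test is attached to these ranks.

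**Figure D3:**
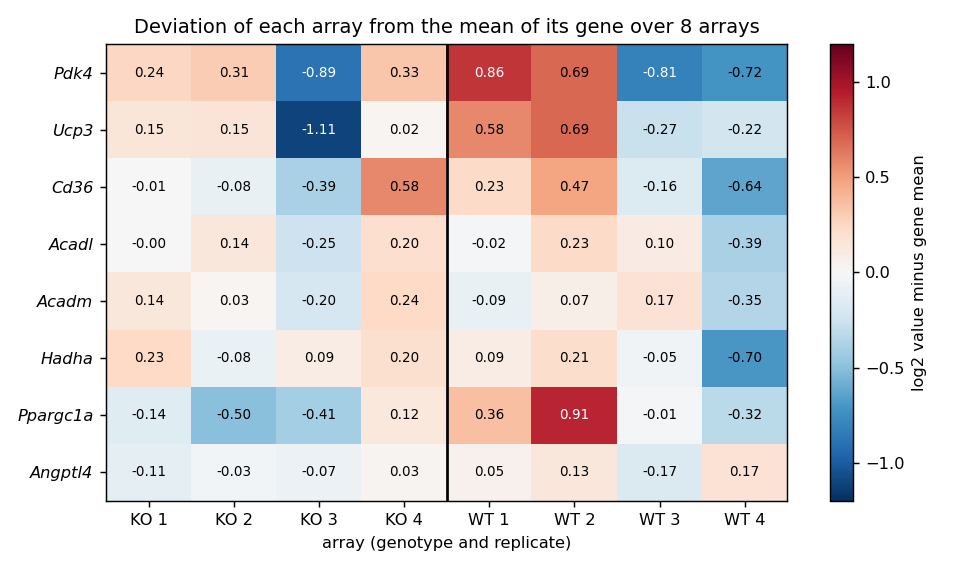
Log2 value of each array (columns, knockout left of the line and wild type right) minus the mean of its gene (rows) over the 8 arrays, red for above and blue for below. Knockout replicate 3 and wild type replicate 4 are below the mean in 7 genes each, except for Hadha in the first and Angptl4 in the second.

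The same few animals were low or high for several genes. In the knockout, replicate 3 was the lowest array for 5 of the 8 genes, namely Pdk4, Ucp3, Cd36, Acadl and Acadm, and replicate 4 was the highest for 6. In wild type, replicate 4 was the lowest for 5 genes and replicate 2 the highest for 5. The array that stood apart over all rows, wild type replicate 4, was the lowest of all 8 arrays for Cd36, Acadl, Acadm and Hadha, and the part of its general deviation in these values was not tested. Knockout replicate 3 had a mean correlation of 0.989 with the other arrays, which lies within the range of the rest.

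The order of the animals was close to the same for Pdk4 and Ucp3. From the lowest, both genes began with knockout replicate 3, wild type replicate 3 and wild type replicate 4, and both ended with wild type replicates 1 and 2 at the top, in the opposite order. Knockout replicates 1, 2 and 4 lay between for both genes. Spearman's rho was 0.905 over the 8 arrays, with an exact permutation p of 0.00456 and an adjusted p of 0.128 over 28 pairs. This was the only pair of the 28 with an exact permutation p of Pearson's r that passed after adjustment (adjusted p = 0.0132). The call was lost when knockout replicate 2 or 3 or wild type replicate 2, 3 or 4 was left out (permutation, adjusted p between 0.0611 and 0.147). Pearson's r was 0.88 over the 8 arrays. It was also 0.88 without knockout replicate 3 and wild type replicate 3, the arrays farthest from the median of Pdk4. Without knockout replicate 3 and wild type replicate 2, the farthest for Ucp3, it was 0.94. Pdk4 falls into separate sets of 3 and 5 arrays, and the low set was still represented in both of these fits. The part of that step in the coefficients was not tested. A relation within the sets cannot be tested, since neither reaches 6 arrays.

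**Figure D4:**
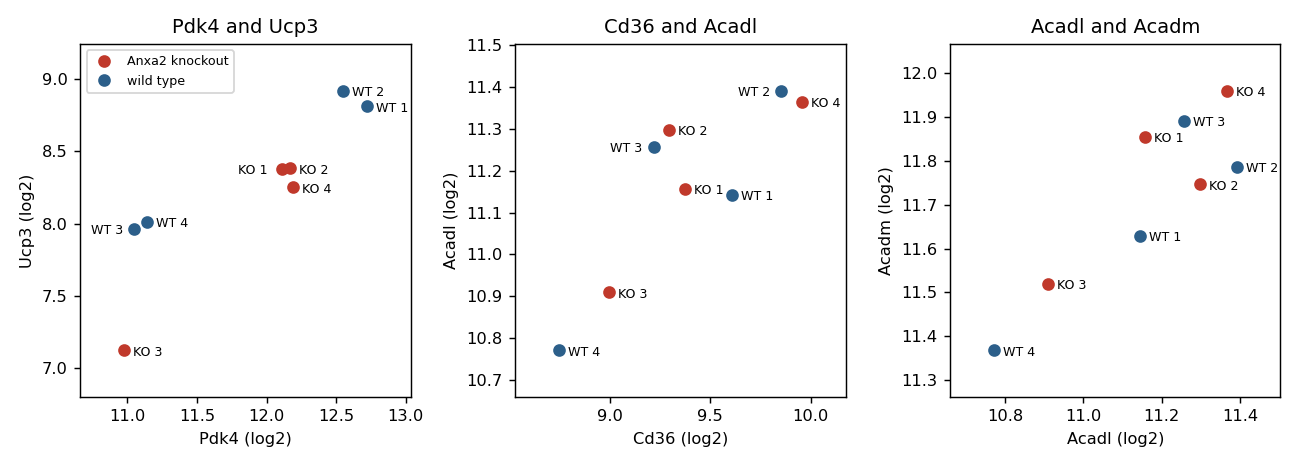
Log2 values of 3 pairs of genes in the 8 arrays, knockout in red and wild type in blue, each point an animal. In the left panel Ucp3 follows the low and the high set of Pdk4, and in the other panels knockout replicate 3 and wild type replicate 4 make the lower ends.

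After Ucp3, the gene closest to Pdk4 by r was Cd36, with r = 0.80 (exact permutation p = 0.0214, adjusted 0.120). The rho of Pdk4 and Cd36 was 0.81 (exact permutation p = 0.0218, adjusted 0.257). With the remaining genes, the r of Pdk4 ran from 0.33 to 0.63. Among the 21 pairs without Pdk4, 18 had a positive r, and the median r was 0.54. The closest were Acadl and Acadm, with r = 0.88 (exact permutation p = 0.00446, adjusted 0.0625) and rho = 0.74 (exact permutation p = 0.0458, adjusted 0.257) over 8 arrays. Cd36 and Acadl followed with r = 0.85 (exact permutation p = 0.00764, adjusted 0.0713) and rho = 0.76 (exact permutation p = 0.0368, adjusted 0.257). Neither passed after adjustment, two-sided, over the 28 pairs. By r, both passed in a permutation test with each array centred on its median (adjusted p = 0.0387 each). In that test they also passed with deviations from the genotype mean (0.0493 each) and from the mean of each side of the split (0.0457 each). Permutation is approximate for such deviations. By rho, neither passed in any of these settings (permutation, adjusted p between 0.108 and 0.470). Leaving out knockout replicate 3 and wild type replicate 4, the arrays farthest from the median of Acadl, lowered r to 0.44 for Acadl and Acadm. Leaving out knockout replicate 4 and wild type replicate 4, the farthest for Cd36, lowered r to 0.69 for Cd36 and Acadl, and leaving out knockout replicate 3 and wild type replicate 4 lowered it to 0.54. Both relations thus rest in good part on the same pair of low animals. Of all other rows, 0.161% had as high an r with Acadl as Acadm had. Angptl4 had r = -0.18 to Acadl, -0.48 to Acadm and -0.41 to Hadha, with exact permutation p-values of 0.662, 0.227 and 0.349. Without wild type replicate 4, r was 0.41, -0.12 and 0.43. The signs to Acadl and Hadha thus rested on that array, while r to Acadm stayed negative. Each side of the array split holds 4 arrays, too few for a correlation of its own. With deviations from the mean of each side, r was 0.90 for Acadl and Acadm and 0.92 for Cd36 and Acadl.

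By r over the 8 arrays, the row most like Pdk4 was ENSMUSG00000020472_at (r = 0.97), and 12 of the 17351 other rows exceeded an r of 0.9. For Ucp3 it was ENSMUSG00000081249_at (r = 0.96), with 13 such rows. The sources used here do not pair these rows with gene names. The values are a measure of likeness over 8 animals, without a test. For Pdk4, the part of its low and high sets in them was not tested.

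The promoters of Pdk4, Ucp3 and Cd36 are shown because these genes had their lowest values in the same 3 animals. They are taken from RefSeq for GRCm38.p6, which lists a promoter for 7 of the 8 genes, and run from 250 bases before to 50 bases after the listed start, 5′ to 3′ on the strand of the gene. Pdk4 lies at chr6:5496229-5496528 on the minus strand, Ucp3 at chr7:100472741-100473040 on the plus strand and Cd36 at chr5:17835847-17836146 on the minus strand. Capitals mark AGGTCA, the core sequence bound by nuclear receptors such as the PPARs, on either strand.
Pdk4: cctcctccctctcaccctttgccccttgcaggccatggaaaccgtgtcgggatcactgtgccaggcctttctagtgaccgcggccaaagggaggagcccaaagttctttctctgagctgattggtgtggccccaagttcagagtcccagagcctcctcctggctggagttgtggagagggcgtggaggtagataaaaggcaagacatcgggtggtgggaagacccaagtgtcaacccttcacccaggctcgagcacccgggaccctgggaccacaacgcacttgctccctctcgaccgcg
Ucp3: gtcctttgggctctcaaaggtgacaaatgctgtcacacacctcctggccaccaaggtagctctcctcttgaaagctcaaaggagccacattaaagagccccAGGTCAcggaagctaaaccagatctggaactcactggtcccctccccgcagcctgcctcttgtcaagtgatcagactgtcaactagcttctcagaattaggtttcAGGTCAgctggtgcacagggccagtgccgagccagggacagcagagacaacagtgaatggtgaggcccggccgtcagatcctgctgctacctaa
Cd36: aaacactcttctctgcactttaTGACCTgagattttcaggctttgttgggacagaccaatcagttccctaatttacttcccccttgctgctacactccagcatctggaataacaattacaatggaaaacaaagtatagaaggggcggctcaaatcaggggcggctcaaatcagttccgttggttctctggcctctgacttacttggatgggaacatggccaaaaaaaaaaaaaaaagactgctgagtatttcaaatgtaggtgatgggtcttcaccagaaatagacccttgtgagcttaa

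AGGTCA was found in the promoters of 3 of the 7 genes, against 16.3% of the 32851 promoters in the table. Ucp3 held it at 149 and 44 bases before the start, Cd36 held it on the opposite strand at 228 bases, and Acadm, whose promoter is not shown, held it on the opposite strand at 249 bases. Pdk4 held none in these 300 bases. The direct repeat of AGGTCA with a single base of any kind between its copies, whose matches are also matches of AGGTCA, was in 0 of the 7 and in 0.0396% of all promoters. The forkhead sequence TGTTTAC, searched on both strands like the others, was also in 0 of the 7, against 3.65% of all. A match is a description of these letters and not of a bound site.

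When the arrays were taken within each side of the split, the genotype difference of Pdk4 and of Ucp3 had opposite signs. By the layout of the sides, such a reversal is also a shift between replicates 1 and 2 and replicates 3 and 4. That shift would be shared by both genotypes, and the 2 readings cannot be told apart. On the high side, Pdk4 averaged 12.14 in the knockout and 11.10 in wild type, a difference of 1.04 (SE 0.32). On the low side it averaged 11.58 in the knockout and 12.64 in wild type, a difference of -1.05 (SE 0.32). That value leans on knockout replicate 3, without which the difference was -0.44 (SE 0.19), with knockout replicate 4 alone assumed to vary like the other cells. The 2 knockout arrays lay above both wild-type arrays on the high side and below both on the low side. Neither contrast passed the test across all rows, with limma adjusted p-values of 0.971 and 1.00.

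For Ucp3, the difference was 0.39 (SE 0.30) on the high side, with means of 8.38 in the knockout and 7.99 in wild type. It was -1.18 (SE 0.30) on the low side, with means of 7.69 in the knockout and 8.87 in wild type, and -0.61 (SE 0.18) without knockout replicate 3. The arrays again did not overlap on either side. Of the 8 genes, 2 showed this order, against 1.89% of all rows, a share that counts this order only. Pdk4 and Ucp3 varied together over the arrays, so these are not independent. The difference between the contrasts of the sides was 2.09 (SE 0.45) for Pdk4 and 1.57 (SE 0.42) for Ucp3. Their limma p-values were 0.00134 and 0.00503 before adjustment, and 0.489 and 0.719 after adjustment over all rows. Without knockout replicate 3 the difference between the contrasts was 1.49 (SE 0.24) for Pdk4 and 1.01 (SE 0.23) for Ucp3, with limma adjusted p-values of 0.116 and 0.451. Of all rows 0.0173% passed, and 0 of the 8 genes did.

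**Figure D5:**
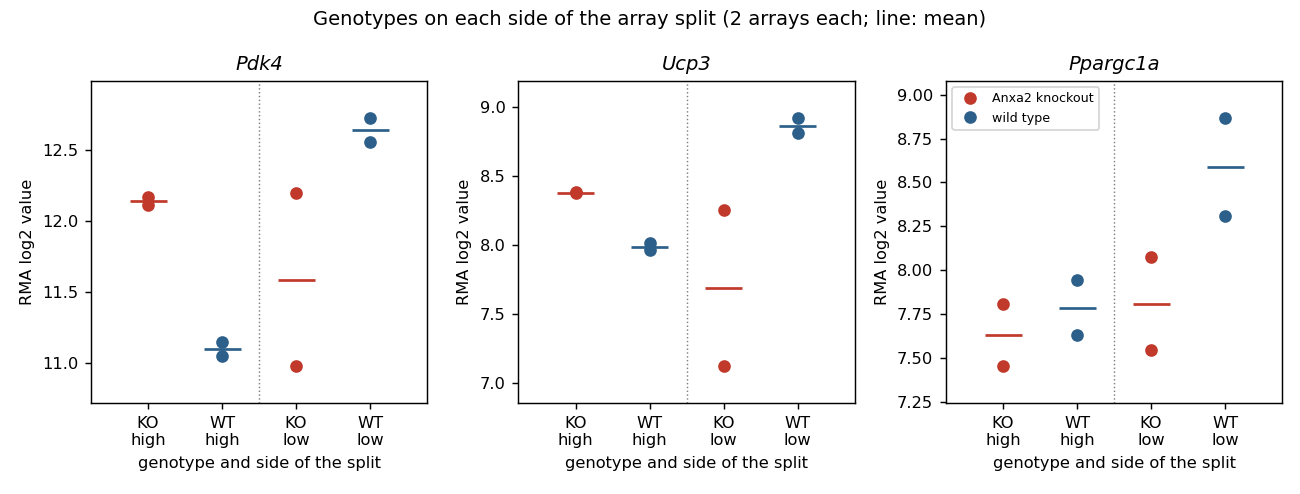
RMA log2 values (vertical axes) of Pdk4, Ucp3 and Ppargc1a in knockout (red) and wild-type (blue) arrays on the high and the low side of the split, with 2 arrays and their mean in each column. Knockout arrays lie above wild type on the high side and below it on the low side for Pdk4 and Ucp3, while for Ppargc1a the knockout mean is lower on both.

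Ppargc1a was lower in the knockout on both sides, by values that did not pass the test. The difference was -0.15 (SE 0.25) on the high side and -0.78 (SE 0.25) on the low side, with limma adjusted p-values of 0.984 and 1.00. With the side as a block the difference was -0.47 (SE 0.20), and the limma p was 0.0403 before and 1.00 after adjustment. For the remaining 5 genes, the difference ran from -0.07 to 0.45 on the high side and from -0.26 to 0.03 on the low side, all with adjusted p-values of 0.971 or more in limma. What separates the sides is not given by the labels.

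Over both genotypes, the mean of each of the 8 genes was lower on the high side than on the low side. However, 0 of the 8 passed the test, against 0.311% of all rows. The high side holds wild type replicate 4 and knockout replicate 2, which stood apart on the first principal component. Their part in this direction was not tested. Ppargc1a averaged 7.71 ± 0.21 on the high side and 8.20 ± 0.55 on the low side (SD, n = 4 each), a difference of -0.49 (SE 0.18) with a limma p of 0.0223 before and 0.464 after adjustment. The difference was also -0.49 (SE 0.23) for Pdk4 and was -0.44 (SE 0.21) for Cd36, each with a limma adjusted p of 0.513. It ran from -0.29 to -0.0081 in the other 5 genes. The sides were drawn from the values of a row and are not groups of the study.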

How the data were processed

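Total RNA was labelled from the 3' end and hybridised to 1 array per animal, per the labels' protocols. The authors deposited log2 expression values, 1 row per Ensembl gene ID. The submitters' processing notes name RMA and R 3.1.2. Scan dates and filters are not stated there.

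Knockout and wild type were compared over 8 arrays with limma 3.58.1 in R 4.3.3 (genotype as the only term, default moderation, two-sided), with Benjamini-Hochberg adjustment over all 17352 rows, a threshold of 0.05 and no filter. Intervals are 95% intervals of that fit, not adjusted for the number of rows. Correlations used exact permutation over the 40320 orders of 8 arrays. The contrasts within and between the sides of the split, in a model with 4 cells of 2 arrays, and their fit without knockout replicate 3 were added after seeing the data. Fits were tested on simulated data. Figures were drawn with matplotlib 3.10.9.

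The genes and lists were chosen with earlier results of these data known. All listed genes with a row are named, and for Pdk4 and Ucp3 the row most like each. Gene names come from that list. The name table used here pairs 0 of its 49997 genes with an Ensembl ID, so 15 further lists (142 symbols of lipid metabolism, its regulators and cell type markers) were not analysed here, the tissue was not checked against its markers, and no row was assigned to Anxa2. The number of arrays limits the precision.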

Additional observations from a re-analysis of the deposited data

Results flagged for a closer look

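In 4 arrays of a genotype, 1 value was taken to stand apart where its gap to the next exceeded Dixon's 95% critical share of the range, which chance gives in about 1 of 20 groups. Of 16 groups checked (8 genes in 2 genotypes), 2 held such a value, and both were knockout replicate 3, at 10.98 for Pdk4 and 7.12 for Ucp3. The other knockout arrays lay between 12.11 and 12.19 for Pdk4 and between 8.25 and 8.38 for Ucp3. The 2 genes varied together, so these are not independent.

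The genotype difference took opposite signs on the sides of the array split for Pdk4 and Ucp3, without overlap of the 2 knockout and 2 wild-type arrays on either side. The difference between the contrasts was 2.09 for Pdk4 and 1.57 for Ucp3, and the limma adjusted p-values of 0.489 and 0.719 did not pass. Without knockout replicate 3 it was 1.49 and 1.01, with adjusted p-values of 0.116 and 0.451. The sides were defined from the values of a row and are no groups of the study. The difference between the contrasts cannot be told apart from a shift between replicates 1 and 2 and replicates 3 and 4 of both genotypes.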

How the results depend on the processing

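The 8 genes were refitted under 18 alternatives, and 0 passed the adjusted threshold in any of them, the lowest adjusted p being 0.936 (Angptl4 was not tested with rows under the 50th percentile left out). The count of all rows past the threshold was 1, and not 0, with the replicate block, array weights, median centring, quantile normalization and cyclic loess. Over all rows, same-numbered deviations of the genotypes had correlations of -0.0719, -0.255, 0.182 and -0.239. Same-numbered arrays always lay on opposite sides of the split, so these values cannot decide whether equal numbers are pairs. The block called 0 of the 8 genes. With it the SE fell from 0.42 to 0.26 for Pdk4 and from 0.32 to 0.18 for Ucp3, and rose for each of the other genes. The unadjusted limma p of Ucp3 went from 0.242 to 0.0619. At an unadjusted p under 0.05 the count of the 8 genes was 1, in each case Ppargc1a, with array weights, with the split as a block and with knockout replicate 2 and wild type replicate 4 both left out, and 0 to 1 when each array was left out. The unadjusted count of all rows, 269, was 136 with rows under the 50th percentile left out (8676 rows tested), 677 with array weights, 701 without those 2 arrays together, and 198 to 530 when each array was left out, namely 530 where knockout replicate 2 was missing and 410 where wild type replicate 4 was. The differences of Ucp3, Acadm, Hadha, Ppargc1a and Angptl4 kept their sign in every alternative that tested them. Pdk4 reversed to 0.026 with quantile normalization and 0.011 with cyclic loess, and with each array left out it ran from -0.28 to 0.29, positive where knockout replicate 3 or wild type replicate 1 or 2 was missing. Cd36 reversed to -0.16 and Acadl to -0.10 with array weights, and to -0.12 and -0.12 without those 2 arrays together. With each array left out Cd36 ran from -0.16 to 0.21 and Acadl from -0.081 to 0.13, both negative where knockout replicate 4 or wild type replicate 4 was missing. The median difference of the 8 genes lay between -0.12 and 0.16 when each array was left out. The count of correlated pairs, 1 of 28, was 5 with deviations from the genotype mean, 3 with median centring and 5 with deviations from each side of the split, where permutation is approximate, and 0 to 2 when each array was left out. The pair of Pdk4 and Ucp3 no longer passed without knockout replicates 2 or 3 or wild type replicates 2, 3 or 4, while its r lay between 0.85 and 0.91 over the 8 fits that left out 1 array. The cause of these changes was not tested.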
